A study of Mus musculus with 32 samples.

Results

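The mouse genes followed here are the 4 pyruvate dehydrogenase kinases (Pdk1 to Pdk4), the 2 pyruvate dehydrogenase phosphatases (Pdp1 and Pdp2) and the 4 bifunctional Pfkfb enzymes (Pfkfb1 to Pfkfb4) in the hearts of socially stressed mice. They are 10 of the 27540 genes tested, found as array probes carrying these gene names, and the set was selected on the stressed minus control values of Pdk1 and Pfkfb1, which had moved in separate conditions. Those values are described with no test; counts of tested members are over the other 8. The array held 16 probes for the 10 genes, of which 15 passed the filter on dim probes, and all 10 genes were tested. The probe used for each gene was well above background on 32 of 32 arrays, so no member was tested through 1 group alone.

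RNA came from the hearts of 32 individual C57BL/6 mice, with 1 Agilent array for each mouse and 4 mice in each of 8 groups. Stressed mice spent 6 hours a day boxed in an aggressor's cage and were attacked there. This lasted 5 days followed by 1 day of rest (T5R1) or 10 days of rest (T5R10), or 10 days followed by 1 day (T10R1) or 42 days (T10R42). Each of the 4 conditions had its own controls, which sat in the same mesh boxes in a cage without an aggressor. All groups were of 1 strain, the labels give no age or sex, and whole heart tissue was used. Every condition was run on its own slide of 8 arrays, so these cannot be told apart. The T10R1 slide was scanned on a different day from the slides of T5R1, T5R10 and T10R42. On every slide controls filled array columns 1 and 2 and stressed mice columns 3 and 4, so column and arm cannot be told apart either. The 8 heart muscle markers, such as Myh6 and Tnnt2, had a mean log2 level of 8.49 to 8.89 on every array, and all 8 were well above background on 32 arrays. Between 28801 and 40699 probes were well above background on an array; at 4 mice per group, the number of arrays limits the precision. The scanner software marked 3 arrays of T5R10 for evaluation (control replicate 4, stressed replicates 1 and 2).

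The pyruvate dehydrogenase complex turns pyruvate into acetyl-CoA in mitochondria and so joins glycolysis to the citric acid cycle. The Pdk enzymes phosphorylate the complex and switch it off, which spares glucose when the heart burns fatty acids, and the Pdp enzymes remove the phosphate and switch it on again. The Pfkfb enzymes make and break down the sugar bisphosphate that activates phosphofructokinase, and so set the pace of glycolysis. Pdk2 and Pdk4 are the main heart kinases, and Pfkfb2 is the isoform named for the heart.

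Promoter windows are shown for 3 members that share a motif, Pdk2, Pdp2 and Pfkfb3. Between mice of a group (correlations described below) Pdk2 and Pdp2 varied together (r = 0.55). Pfkfb3 ran against Pdk2 (r = -0.47) and had r = -0.19 with Pdp2. Pfkfb2, which also holds the motif, had r = 0.06, 0.07 and -0.02 with Pdk2, Pdp2 and Pfkfb3. The RefSeq promoter table of build GRCm38.p6 held 17 start sites for 9 of the 10 members, and the 250 bases before each start were searched on both strands. The E-box CACGTG, bound by several helix-loop-helix factors, lay before a start of 4 members, Pdk2, Pdp2, Pfkfb2 and Pfkfb3, and it was picked after these windows had been read. It is found in 6.02% of all 32851 windows of the same length and in 6.86% of the 27025 genes. The 9 members had more windows per gene than all genes did, so a member had more chances of a match. The same holds for the other motifs below. The capitals mark CACGTG, at 126, 219 and 53 bases before the start in the 3 windows below, which are written 5′ to 3′.
Pdk2, chr11:95041372-95041621, minus strand: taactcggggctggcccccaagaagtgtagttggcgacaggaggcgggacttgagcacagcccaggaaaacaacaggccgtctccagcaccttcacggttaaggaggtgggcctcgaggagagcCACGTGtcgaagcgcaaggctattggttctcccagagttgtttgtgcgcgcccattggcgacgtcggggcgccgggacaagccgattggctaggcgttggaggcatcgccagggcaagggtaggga
Pdp2, chr8:104591222-104591471, plus strand: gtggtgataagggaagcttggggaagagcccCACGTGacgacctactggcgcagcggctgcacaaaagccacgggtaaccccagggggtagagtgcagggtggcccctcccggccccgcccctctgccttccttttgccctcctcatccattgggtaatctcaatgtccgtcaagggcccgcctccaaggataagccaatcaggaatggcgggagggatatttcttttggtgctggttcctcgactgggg
Pfkfb3, chr2:11502091-11502340, minus strand: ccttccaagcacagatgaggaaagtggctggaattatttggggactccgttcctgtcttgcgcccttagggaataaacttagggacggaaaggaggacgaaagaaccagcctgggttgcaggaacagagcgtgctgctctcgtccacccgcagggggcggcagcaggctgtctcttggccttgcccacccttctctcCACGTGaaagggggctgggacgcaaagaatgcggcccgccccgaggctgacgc
CACGTG contains ACGTG, which with GCGTG forms the core letters of hypoxia response elements. ACGTG lay before a start of 5 members (18.5% of all genes) and GCGTG before a start of 7 (30.9% of all genes), the single Pfkfb4 window and one Pdk1 window among the latter. The consensus direct repeat of PPAR sites, the consensus palindrome of glucocorticoid receptor sites and the FoxO letters GTAAACA were in none of the 17 windows, against 0.0407%, 0.0111% and 3.54% of all genes. A match describes letters, and the arrays measured no factor's binding.

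Levels are on a log2 scale on which 0 is the 75th percentile of the processed signals of an array, and a stress effect is the stressed mean minus the control mean on this log2 scale. Because each probe has its own brightness, levels are compared between groups for a gene and not between genes.

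Markers of other cell types differed between arms in several conditions. The mean level of 6 fibroblast markers was 3.46 to 3.73 in T5R1 controls and 4.77 to 5.91 in stressed mice, and 3.58 to 3.65 against 4.42 to 5.45 in T10R1, with 4 of 6 called higher in each. Of 6 macrophage markers 3 were called higher in T5R1 (mean level -0.02 to 0.14 against 0.26 to 1.17) and 1 in T10R1, and of 5 tested red cell markers 3 were called higher in T5R1 (1.00 to 1.82 against 2.21 to 4.53). In T10R1 the red cell mean was 0.75 to 1.86 in controls and 1.69 to 3.76 in stressed mice. There 0 red cell markers were called, with 2 at an unadjusted limma p below 0.05. Every tested fibroblast, macrophage and red cell marker had a measured effect above 0 in T5R1 and in T10R1. After long rest limma called 0 markers of these lists, but some list means shifted between arms. In T5R10 the arms did not overlap for fibroblast markers (3.31 to 3.50 in controls, 3.56 to 4.22 in stressed mice) or macrophage markers (-0.14 to 0.04 against -0.40 to -0.19), with 3 and 1 at an unadjusted limma p below 0.05. In T10R42 the red cell mean was 1.16 to 2.29 in controls and 0.38 to 1.46 in stressed mice. These arms overlapped, with 2 markers at an unadjusted limma p below 0.05. T5R10 and T10R42 are the conditions in which all stressed mice lay above their controls for Pdk1. The 7 adipocyte markers had median effects of -1.05 in T5R1 and -1.11 in T10R1, with 0 called and 2 and 0 at an unadjusted limma p below 0.05. Heart muscle markers had a median effect of -0.24 in T5R1, with 1 of 8 called. In whole tissue, fewer cells of a type and less RNA per cell cannot be told apart, and the part of these shifts in the members' values was not tested. Skeletal muscle and liver markers Myh1, Myh2, Mylpf, Alb, Apoa1, Fgb and Apoh were well above background on 0 to 6 of 32 arrays. The other skeletal muscle markers, Myh4, Actn3, Tnnt3, Tnni2 and Pvalb, were so on 12 to 32 arrays. Of the other liver markers, Ttr was so on 25 arrays and Serpina1a on 32.

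Pdk1, a kinase that hypoxia induces in many cells, was measured by a probe at chr2:71739688-71739747 (mm9). Its level was 1.61, 1.63, 1.63 and 1.55 in the T5R1 controls and 1.74, 1.74, 1.57 and 1.89 in the T5R1 stressed mice. In T5R10 it was 1.36, 1.20, 1.16 and 1.15 in controls and 1.57, 1.44, 1.61 and 1.75 in stressed mice. The stressed mice of T5R10 all lay above their controls, while the arms of T5R1 overlapped. In T10R1 the level was 1.73, 1.67, 1.65 and 1.53 in controls and 1.61, 1.48, 1.43 and 1.45 in stressed mice. In T10R42 it was 1.13, 1.30, 1.26 and 1.26 in controls and 1.72, 1.56, 1.63 and 1.61 in stressed mice. All T10R42 stressed mice lay above their controls, and the T10R1 arms overlapped with the stressed mice on the low side. The stress effects that chose Pdk1 were thus 0.13, 0.37, -0.15 and 0.39 in T5R1, T5R10, T10R1 and T10R42, each with a standard error of 0.07.

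The control means of Pdk1 ranged more widely than its stressed means. They, in order, were 1.22 ± 0.10 in T5R10, 1.24 ± 0.08 in T10R42, 1.60 ± 0.04 in T5R1 and 1.64 ± 0.08 in T10R1 (SD, n = 4). The 2 conditions with a long rest had the low controls and those with 1 day of rest the high ones, and the neighbours within each pair differed by no more than the SD of either group. The stressed means were 1.50 ± 0.08 in T10R1, 1.59 ± 0.13 in T5R10, 1.63 ± 0.06 in T10R42 and 1.74 ± 0.13 in T5R1 (SD, n = 4). Quantile normalization over all arrays kept the low controls, at 9.76 ± 0.11 in T5R10 and 9.78 ± 0.08 in T10R42 against 10.09 ± 0.03 in T5R1 and 10.04 ± 0.07 in T10R1 on its own log2 scale. Since each condition is 1 slide, a difference between controls of conditions and a difference between slides cannot be told apart. Pdk1 varied little between mice of a group: its within-group SD of 0.09 was at percentile 3.99 of the tested genes, whose median was 0.22.

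**Figure D1:**
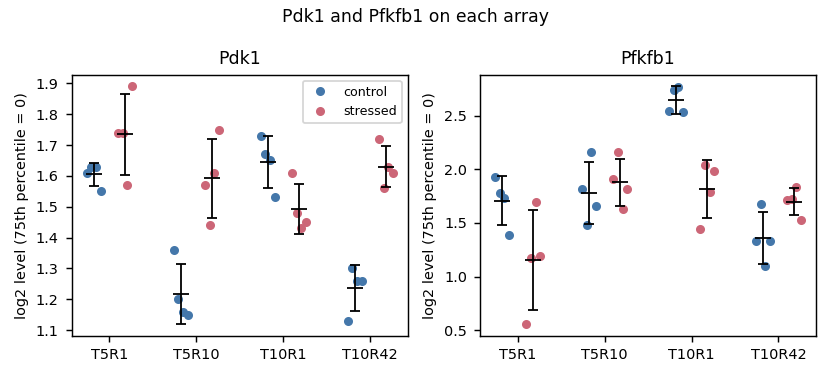
Log2 level (75th percentile of the array = 0) of Pdk1 and Pfkfb1 on each of the 32 arrays by condition; points are mice, bars are the mean ± SD of 4 mice. Pdk1 controls average 1.22 and 1.24 in T5R10 and T10R42 and 1.60 and 1.64 in T5R1 and T10R1, and Pfkfb1 controls reach 2.64 in T10R1.

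Pfkfb1, the isoform of liver and skeletal muscle, was read by a probe at chrX:147078320-147078379 (mm9). Its level was 1.93, 1.78, 1.73 and 1.39 in T5R1 controls and 0.56, 1.17, 1.70 and 1.19 in stressed mice. In T10R1 it was 2.54, 2.74, 2.77 and 2.53 in controls and 1.44, 2.04, 1.79 and 1.98 in stressed mice. The T10R1 arms did not overlap, with stressed mice lower, and the T5R1 arms overlapped through stressed replicate 3. After long rest the level was 1.82, 1.48, 2.16 and 1.66 in T5R10 controls against 1.91, 2.16, 1.63 and 1.82 in stressed mice. In T10R42 it was 1.33, 1.68, 1.10 and 1.33 in controls against 1.71, 1.72, 1.84 and 1.53 in stressed mice. These arms overlapped in both conditions. The stress effects that chose Pfkfb1 were -0.56, 0.10, -0.83 and 0.34 in T5R1, T5R10, T10R1 and T10R42, each with a standard error of 0.18. Without T5R1 stressed replicate 1, the lowest array, the T5R1 effect was -0.36. As for Pdk1, the controls differed: 2.64 ± 0.13 in T10R1, 1.78 ± 0.29 in T5R10, 1.71 ± 0.23 in T5R1 and 1.36 ± 0.24 in T10R42 (SD, n = 4). The T5R10 and T5R1 controls differed by less than their SD, and the T10R1 stressed mean of 1.81 ± 0.27 was near them.

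Pdk2, which is responsive to the energy state of mitochondria, was the member called by limma. It was lower in stressed mice of T5R1: the level was 5.12, 5.12, 5.19 and 5.07 in controls and 4.57, 4.63, 4.63 and 4.96 in stressed mice, with no overlap. The stress effect was -0.43 ± 0.09 (SE), or 1.35-fold lower (limma adjusted p = 0.00236 over all 27540 genes). The probe used lies at chr11:94887669-94887728 (mm9), and a second Pdk2 probe at chr11:94887980-94888039 gave -0.41 ± 0.10 (limma adjusted p = 0.00641 over all kept probes). The median gene moved by -0.12 in this comparison and by -0.04 after quantile normalization, under which the Pdk2 effect was -0.34 ± 0.08 (limma adjusted p = 0.00668). The call held under all the alternatives run for it, with effects from -0.52 to -0.34.

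In the other conditions Pdk2 was not called. The level was 5.23, 5.26, 5.06 and 5.33 in T5R10 controls and 5.44, 5.33, 5.46 and 5.20 in stressed mice (effect 0.13 ± 0.09, limma adjusted p = 0.522). T10R1 gave 5.32, 5.35, 5.18 and 5.17 in controls and 4.87, 5.10, 5.15 and 5.15 in stressed mice (effect -0.19 ± 0.09, limma adjusted p = 0.382). The T10R1 arms did not overlap, by a narrow margin, and the T5R10 arms did. T10R42 gave 5.13, 5.25, 5.25 and 5.21 in controls and 5.47, 5.24, 5.19 and 5.08 in stressed mice (effect 0.04 ± 0.09, limma adjusted p = 0.875), with a sign that turned after quantile normalization (-0.02). The stress effect in T5R10 exceeded that in T5R1 by 0.56 ± 0.13 (limma adjusted p = 0.0175), a test of the difference itself. Unlike the T5R1 call, this one was lost under several settings: after quantile normalization (0.42 ± 0.11, adjusted p = 0.0519), with only the arrays of these 2 conditions (adjusted p = 0.0738), and without T5R1 stressed replicate 1 (0.52, adjusted p = 0.0514). The corresponding difference between T10R42 and T10R1 was 0.22 ± 0.13 (limma adjusted p = 0.302).

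Pdk4, the kinase that fasting, fatty acids and glucocorticoids induce, had the widest spread of the set and lay just outside the threshold in T5R1. Its level, from a probe at chr6:5433441-5433500 (mm9), was 4.55, 4.74, 5.08 and 5.03 in T5R1 controls and 3.63, 4.20, 3.56 and 4.29 in stressed mice, without overlap. The effect was -0.93 ± 0.32, a 1.91-fold lower mean (limma adjusted p = 0.0509). Several alternatives put it below 0.05, among them a stricter filter on dim probes (adjusted p = 0.0458), slide row as a covariate (0.0465) and the arrays of T5R1 alone (0.0334), while quantile normalization gave -0.85 ± 0.32 (limma adjusted p = 0.0909). Without T5R1 stressed replicate 4 it was -1.06 ± 0.34 (limma adjusted p = 0.0413). In T10R1 the level was 4.28, 5.24, 5.63 and 5.14 in controls and 3.60, 4.88, 5.36 and 4.49 in stressed mice (effect -0.49 ± 0.32, limma adjusted p = 0.548). Leaving out 1 array moved this effect between -0.76, without control replicate 1, and -0.16, without stressed replicate 1. T5R10 gave 5.27, 4.64, 5.31 and 5.42 in controls and 4.66, 5.46, 5.62 and 5.53 in stressed mice (effect 0.16 ± 0.32, limma adjusted p = 0.849). The arms overlapped in both. In T10R42 it was 4.81, 5.36, 4.39 and 5.18 in controls and 5.04, 5.70, 4.76 and 5.16 in stressed mice (effect 0.23 ± 0.32, limma adjusted p = 0.745), also with overlap. Without T5R10 stressed replicate 1, one of the marked arrays and the lowest of its group, the T5R10 effect was 0.38 ± 0.33. The within-group SD of Pdk4 was 0.47, at percentile 85.1 of the tested genes, and arrays in slide row 1 exceeded those in row 2 by 0.31 after group means were removed, against -0.10 to 0.05 for the other 9 members.

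Pdk3, a kinase of testis and other non-muscle tissues, was not called in any condition. Its group means ran from -1.66 ± 0.17 (T10R42 stressed) to -1.33 ± 0.22 (T5R10 controls; SD, n = 4), and its effects were -0.15, -0.03, -0.05 and -0.14 in T5R1, T5R10, T10R1 and T10R42, each ± 0.18 (smallest limma adjusted p = 0.619). The T5R10 sign turned under quantile normalization, to 0.04.

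**Figure D2:**
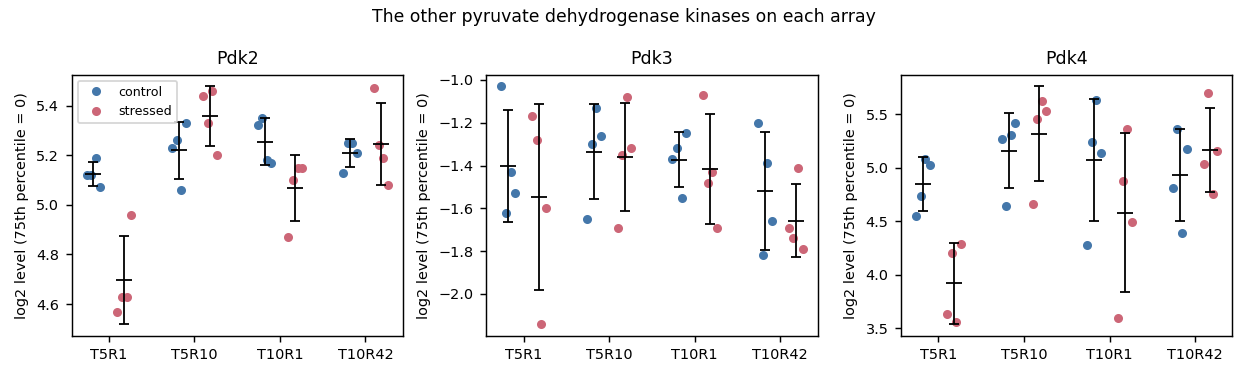
Log2 level (75th percentile of the array = 0) of Pdk2, Pdk3 and Pdk4 on each of the 32 arrays by condition; points are mice, bars are the mean ± SD of 4 mice. In T5R1 the stressed mice lie below all controls for Pdk2 (4.57 to 4.96 against 5.07 to 5.19) and Pdk4 (3.56 to 4.29 against 4.55 to 5.08), and Pdk3 overlaps throughout.

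The phosphatases, which oppose the kinases, were not called in any condition. Pdp2, the isoform that insulin can raise, was 1.61, 1.23, 1.74 and 1.36 in T5R1 controls and 0.73, 1.16, 1.35 and 1.44 in stressed mice (effect -0.32 ± 0.17, limma adjusted p = 0.222). In T10R42 it was 1.56, 1.66, 1.35 and 1.21 in controls and 2.09, 1.97, 1.74 and 1.42 in stressed mice (effect 0.36 ± 0.17, limma adjusted p = 0.262). The arms overlapped in both. The effects in T5R10 and T10R1 were 0.27 and -0.13, and without T10R1 stressed replicate 1, at 1.25 against 1.81 to 1.85 in the other 3, the latter became 0.02. A second, dimmer Pdp2 probe, well above background on 21 arrays, gave 0.59 ± 0.21 in T10R1 (limma adjusted p = 0.222). Pdp1, the calcium-stimulated isoform of heart and muscle, had effects between -0.13 and 0.04 by its brightest probe, each ± 0.09. Its 3 probes disagreed in sign: in T5R1 they gave -0.07, 0.23 and 0.06, and in T10R42 -0.11, 0.24 and 0.27, none called, so no direction is given for Pdp1.

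Among the other Pfkfb enzymes, Pfkfb3, the inducible isoform with high kinase activity, was 0.83, 0.67, 1.10 and 0.79 in T10R1 controls and 0.30, 0.47, 0.19 and 0.44 in stressed mice. These arms did not overlap, and the effect was -0.50 ± 0.23 (limma adjusted p = 0.356). In T10R42 the level was 0.76, -0.44, -0.37 and -0.41 in controls and -0.19, 0.05, 0.35 and 0.63 in stressed mice (effect 0.32 ± 0.23, limma adjusted p = 0.475). Control replicate 1 stood apart there, and without it the T10R42 effect was 0.61 ± 0.20 (limma adjusted p = 0.129). The stress effect in T10R42 exceeded that in T10R1 by 0.82 ± 0.33 (limma adjusted p = 0.135), and by 1.11 ± 0.28 without that array (limma adjusted p = 0.0415). On that array the mean level of 7 adipocyte markers, such as Adipoq and Plin1, was 2.01, against -2.04 to -0.27 in the other 3 controls. The mean of the 2 tested lung markers, Scgb1a1 and Sftpc, was 5.00 on that array against -4.34 to -3.41 in the other 3 controls. It was also high, at 3.67, on T10R42 stressed replicate 4, the highest of its group for Pfkfb3 (0.63), and at 2.95 on T5R1 control replicate 4, the lowest of its group for Pfkfb3 (-0.03). The part of either marker list in the result was not tested. Likewise, T5R10 stressed replicate 2 was highest of its group for Pfkfb3, at 1.04, and for the adipocyte markers, at 2.32. For the lung markers it was not the highest, at -3.37 against -2.75 on stressed replicate 3. A second, dimmer Pfkfb3 probe, well above background on 14 arrays, gave -0.42 ± 0.46 in T10R1 and 0.89 ± 0.46 in T10R42.

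Pfkfb4, known from testis and from hypoxic cells, was -0.62, -0.76, -0.80 and -0.68 in T5R1 controls and -0.10, -0.43, -0.55 and -0.52 in stressed mice. The arms did not overlap, and the effect was 0.32 ± 0.13 (limma adjusted p = 0.106). Its effects in T5R10, T10R1 and T10R42 were -0.07, 0.17 and 0.08. Pfkfb2, the heart isoform, had effects of 0.01, -0.15, 0.06 and 0.22 in T5R1, T5R10, T10R1 and T10R42, each ± 0.15 (smallest limma adjusted p = 0.455), and its arms overlapped in all 4.

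**Figure D3:**
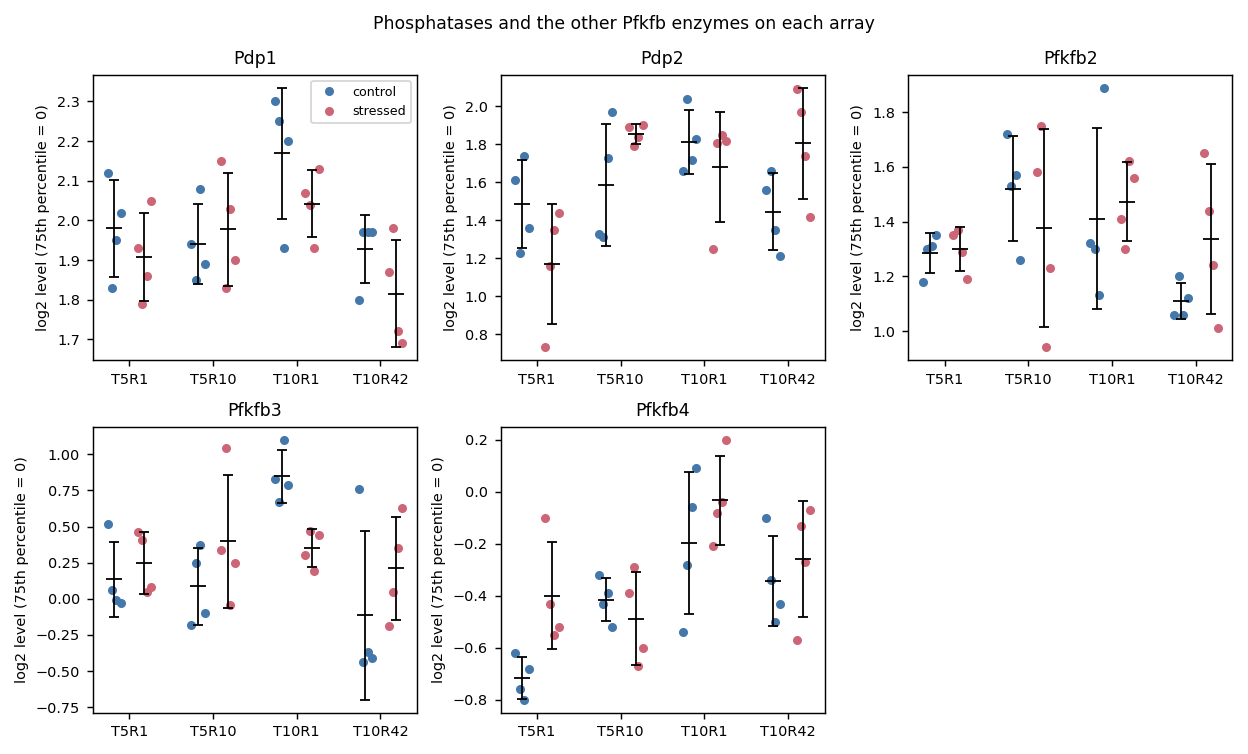
Log2 level (75th percentile of the array = 0) of Pdp1, Pdp2, Pfkfb2, Pfkfb3 and Pfkfb4 on each of the 32 arrays by condition; points are mice, bars are the mean ± SD of 4 mice. Pfkfb3 is lower in all stressed mice of T10R1 (0.19 to 0.47 against 0.67 to 1.10), and 1 T10R42 control, at 0.76, stands apart from the others.

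Counted over the 8 tested members, limma called 1 in T5R1, Pdk2, which was lower; 13.7% of all genes were called in that condition, and 8.42% were called lower, so 1 of 8 is near the background. Of all calls in T5R1 61.4% were lower, but 40% after quantile normalization, 38.6% in the authors' values, 49.4% with the percentile over probes detected on all arrays and 70.7% after normexp. By limma 0 members were called in T5R10, where 0.0763% of all genes were, in T10R1 (1.13%) or in T10R42 (0.897%). At an unadjusted limma p below 0.05 there were 1 member higher and 2 lower in T5R1 (29.5% of all genes), 0 in T5R10 (14%), 1 lower in T10R1 (13.1%) and 1 higher in T10R42 (18.8%). Beside Pdk2 these were Pdk4 (lower) and Pfkfb4 (higher) in T5R1, Pfkfb3 in T10R1 and Pdp2 in T10R42. In T5R1 the arms of 3 members did not overlap, against 22.3% of all genes: 1 was higher (6.63% of all genes) and 2 were lower (15.7%). In T10R1 the arms of 2 did not overlap, both lower (5.47% of all genes, and 9.76% in either direction), and in T5R10 (5.84%) and T10R42 (11.4%) those of 0.

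For differences between stress effects, limma called 1 member in T5R10 minus T5R1, Pdk2, which was higher in T5R10; 2.49% of all genes were called and 1.18% higher. In T10R42 minus T10R1 limma called 0 (4.12% of all genes) and in T10R1 minus T5R1 also 0 (0.592%). At an unadjusted limma p below 0.05 there were 3 higher and 1 lower in T5R10 minus T5R1 (17.2% of all genes), 1 higher in T10R42 minus T10R1 (22.9%) and 0 in T10R1 minus T5R1 (17.8%). The mean effect over the 4 conditions gave 0 limma calls against 12.6% of all genes, with 1 lower at an unadjusted p below 0.05 (29.5%). The median effects of the 8 were -0.11, 0.09, -0.13 and 0.15 in T5R1, T5R10, T10R1 and T10R42, beside -0.12, -0.02, 0 and -0.03 for all genes.

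**Figure D4:**
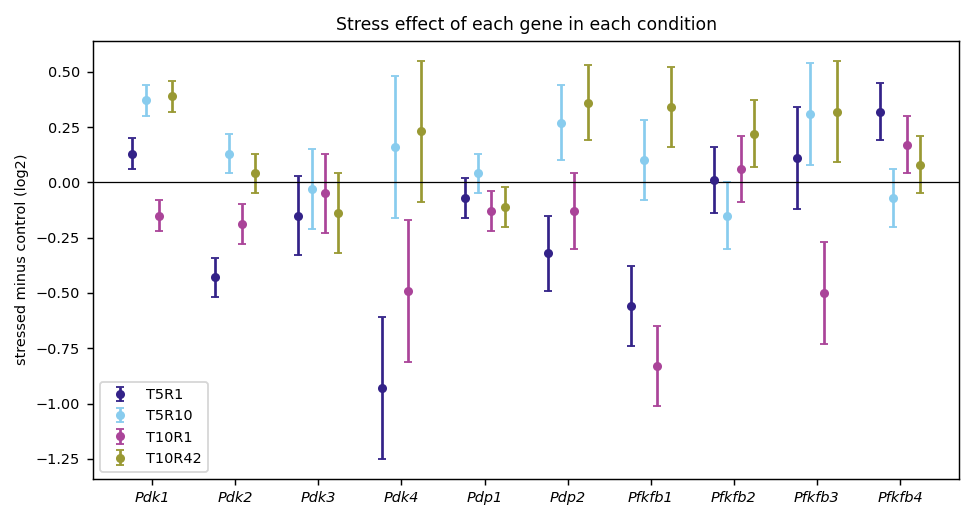
Stressed minus control (log2) for each of the 10 genes in the 4 conditions; points are limma estimates and bars their standard errors, with a line at 0. Pdk1 and Pfkfb1 chose the set. Among the other 8, the call is Pdk2 in T5R1 (-0.43), and the Pdk4 value there (-0.93) has an adjusted p of 0.0509.

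Of 12 genes of the pyruvate dehydrogenase complex and of pyruvate entry, 3 fell in T5R1 and 0 rose: Ldhb, the heart lactate dehydrogenase subunit (-0.34 ± 0.09), Dlat, the acetyltransferase core of the complex (-0.28 ± 0.09), and Slc16a1, a lactate and pyruvate transporter (-0.41 ± 0.13; largest limma adjusted p of the 3 = 0.0351). Of all genes 8.42% were called lower in T5R1, and 13.7% were called in either direction. Dlat also fell in T10R1, by 0.40 ± 0.09 on the log2 scale (limma adjusted p = 0.0203), as the only gene of the list called there. In T10R1 1.13% of all genes were called. Its effect in T10R42 exceeded that in T10R1 by 0.49 ± 0.12 (limma adjusted p = 0.0294). In T5R10, the list had 0 calls; Pdha1, the catalytic subunit that the kinases phosphorylate, was 0.34 ± 0.11 (limma adjusted p = 0.15). The list's median effects were -0.13, 0.13, -0.26 and 0.09 in T5R1, T5R10, T10R1 and T10R42, beside -0.12, -0.02, 0 and -0.03 for all genes. At an unadjusted limma p below 0.05 there were 5, 4, 8 and 1 of the 12, and in T10R1 the measured effect was below 0 for 11 of 12.

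Of 19 glycolytic genes, 1 rose and 2 fell in T5R1, and none was called in the other conditions (unadjusted p below 0.05 for 1, 3 and 2 genes in T5R10, T10R1 and T10R42). Of all genes 13.7% were called in T5R1 and 8.42% were called lower, so these counts are near the background. The list median in T5R1 was -0.07, beside -0.12 for all genes. Pfkp, the platelet phosphofructokinase, rose by 0.60 ± 0.12 and Pfkm, the muscle form, fell by 0.32 ± 0.07 (limma adjusted p = 0.00111 and 0.0042). Slc2a4, the insulin-responsive glucose transporter, fell by 0.34 ± 0.09 (limma adjusted p = 0.00941). Phosphofructokinase is the enzyme that the Pfkfb product activates. Slc2a1, the basal glucose transporter, was 0.46 ± 0.17 in T5R10 and in T10R42 (limma adjusted p = 0.216 and 0.145).

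The 16 PPAR and fasting targets, the group to which Pdk4 belongs, had a median effect of -0.22 in T5R1, beside -0.12 for all genes. Measured effects were above 0 for 2 of 16. By limma 4 fell and 0 rose in T5R1, where 8.42% of all genes were called lower, and none was called in the other 3 conditions (unadjusted p below 0.05 for 2, 4 and 1). Among them were Acadm, the medium-chain acyl-CoA dehydrogenase (-0.39 ± 0.10, limma adjusted p = 0.00772), and Cd36, a fatty acid transporter (-0.31 ± 0.09, limma adjusted p = 0.015). Between T5R1 and T5R10 the effects of Cd36 and Acadm differed by 0.53 ± 0.12 and 0.51 ± 0.14 (limma adjusted p = 0.016 and 0.0442), higher in T5R10 as for Pdk2. Of 15 regulators of fuel choice, 5 fell in T5R1, where 8.42% of all genes were called lower, and 0 rose. Measured effects were above 0 for 6 of 15, and the list median was -0.13, beside -0.12 for all genes. Among the 5 were Ppara (-0.51 ± 0.14), the receptor that drives the PPAR targets, and its partner Rxra (-0.48 ± 0.13). The coactivator Ppargc1a (-0.50 ± 0.12) and the hypoxia factor Epas1 (-0.42 ± 0.10) were also called lower. The largest limma adjusted p of these 4 was 0.016. In the other conditions 0 of 15 were called (unadjusted p below 0.05 for 1, 3 and 0).

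Of 11 glucocorticoid receptor targets, Mt2, a metallothionein, rose by 1.05 ± 0.35 and Ddit4, an inhibitor of mTOR signalling, fell by 1.11 ± 0.24 in T5R1 (limma adjusted p = 0.0435 and 0.0032). In that condition 13.7% of all genes were called. Mt2 was the only 1 of the 11 with a measured effect above 0 in T5R1, and 10 were lower. The list median there was -0.33, beside -0.12 for all genes, with 4 at an unadjusted limma p below 0.05. Measured values of the list, with 0 calls, were higher for 11 of 11 in T5R10 and lower for 11 of 11 in T10R1 (median 0.26 and -0.42; unadjusted p below 0.05 for 0 and 5). The Ddit4 effect was 1.39 ± 0.35 higher in T5R10 than in T5R1 (limma adjusted p = 0.0304). Of 13 tested hypoxia targets, Car9, a carbonic anhydrase, rose in T5R1 (1.19 ± 0.28, limma adjusted p = 0.00487), from a level well above background on 2 of 4 control arrays; no other was called by limma in any condition (unadjusted p below 0.05 for 3, 0, 1 and 2 in T5R1, T5R10, T10R1 and T10R42). All lists were drawn up with results of these data known, so their counts describe and do not support.

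Variation between mice of a group uses no difference between arms, and was described by the correlation of deviations from group means over the 32 arrays. Among the 45 pairs of members, Pfkfb3 and Pfkfb4 were the most alike (r = 0.60, rho = 0.58), followed by Pdk2 with Pdp2 (r = 0.55, rho = 0.51) and Pdp2 with Pfkfb1 (r = 0.55, rho = 0.46). Without the 2 arrays farthest from the median, these r were 0.52, 0.47 and 0.38. The 95th percentile of r over all genes was 0.38 for Pfkfb3 and 0.49 for Pdk2. Pdk1 ran against Pfkfb4 (r = -0.48) and Pdk2 against Pfkfb3 (r = -0.47). Taking deviations from group means also removed differences between slides. Labelling batches and RNA quality, which arrays may share, are not given in the labels, so these values carry no p.

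By the same measure, the genes most like Pdk2 were Acot7 (r = 0.89), a thioesterase, Bcat2 (r = 0.88), the mitochondrial branched-chain aminotransferase, and Ubl7 (r = 0.88). Pdk1 was most like Snx13 (r = 0.82), Crot (r = 0.80), the peroxisomal carnitine octanoyltransferase, and Bcl7c (r = 0.79). Pdk3 was most like Gpx3 (r = 0.86), Nppa (r = 0.81), the atrial natriuretic peptide gene, and Gm8096 (r = 0.79). For Pdk4 the values were lower: 9130214F15Rik and Ehhadh (both r = 0.68), the latter a peroxisomal fatty acid oxidation enzyme, and Arr3 (r = 0.67). Pfkfb1 was most like Eml1 (r = 0.72), Hk2 (r = 0.71), a hexokinase, and Aarsd1 (r = 0.71). The remaining members had their closest genes at r = 0.80 (Pdp1, Utp20), 0.82 (Pdp2, Ccrl2), 0.78 (Pfkfb2, Izumo4), 0.80 (Pfkfb3, 4931406C07Rik) and 0.75 (Pfkfb4, Wdr91).

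Against the lists, Pdk4 correlated with the 16 PPAR and fasting targets at a median r of 0.31 (0.03 to 0.60), highest for Acot1 (0.60), an acyl-CoA thioesterase, and Angptl4 (0.55), a lipase inhibitor. With glucocorticoid receptor targets its median r was -0.05. Pdk2 correlated with the 19 glycolytic genes at a median of 0.30 (-0.35 to 0.72), highest for Pfkm (0.72) and Pgam2 (0.64). With the 6 macrophage markers the median r of Pdk2 was -0.22 (-0.58 to 0.12), and with the 6 fibroblast markers -0.30 (-0.47 to 0.33). This was not particular to Pdk2: in the same order the medians were -0.30 and -0.38 for Pdp2, and -0.33 and -0.31 for Pfkfb1. Pfkfb3 correlated with the 7 adipocyte markers at a median of 0.59 (0.30 to 0.65), Pfkfb4 with them at 0.37 and Pdk3 at 0.39. Pfkfb4 had a similar median with macrophage markers, 0.33 (0.20 to 0.61), and one of -0.33 with red cell markers. Pdk3 had a median of 0.36 with fibroblast markers. With the lung markers Scgb1a1 and Sftpc, Pfkfb3 had r = 0.60 and 0.45 (0.52 and 0.23 without the 2 farthest arrays), and Pfkfb4 0.35 and 0.40. For Pdp1 the median with adipocyte markers was -0.39. For Pfkfb3 the adipocyte values fell to between 0.37 and 0.51 for the 6 markers over 0.5 when the 2 farthest arrays were left out.

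**Figure D5:**
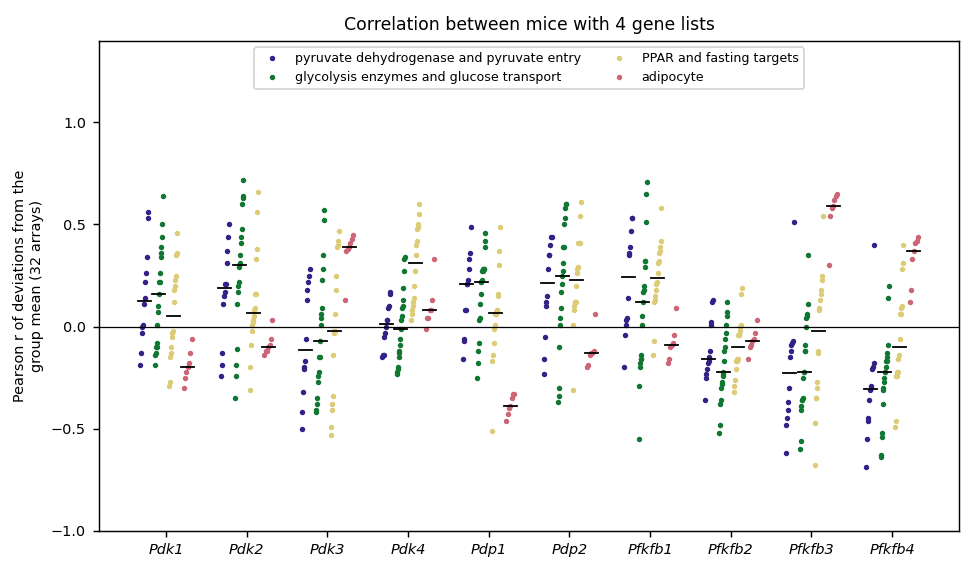
Pearson r of deviations from the group mean over 32 arrays, between each of the 10 genes and the genes of 4 lists; each point is a gene of the list and each bar the list's median. The adipocyte markers lie highest for Pfkfb3 (median 0.59), and the PPAR and fasting targets have a median of 0.31 for Pdk4.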

How the data were processed

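RNA of 32 mouse hearts was measured on one-colour Agilent arrays. The deposited scanner files hold intensity values, background-subtracted by Agilent's Feature Extraction software (version 10.7.3.1, per the file headers). The deposited files also hold other values, 0 or 1 flags per spot. The authors' value table holds log2 values that match the log2 mean signal (r of at least 0.9995) and differ by slide in their medians (6.003 to 6.388); their scaling is not stated, and these values served only as an alternative.

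Control spots (3671 of 62976) and 5470 outlier values were left out, and no probe value was saturated. Each processed signal was divided by the 75th percentile of its array and analysed as log2. Probes well above background on at least 3 of 4 arrays of a group and missing on at most 4 arrays were kept (38835 of 55681), the brightest for each of 27540 genes, with 54 missing values. limma 3.58.1 in R 4.3.3 fitted 8 group means (24 residual, 2.28 prior degrees of freedom), with two-sided tests and Benjamini-Hochberg adjustment, called below 0.05; the script was tested on simulated data.

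All 10 members were named, with, per list and condition, up to 4 called genes or the 2 of smallest p (some are not reported here), and the 3 genes most like each member. Members and lists were chosen with earlier results of these data known. Alternatives changed background correction, normalization, filter, probe, covariates and arrays.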

Additional observations from a re-analysis of the deposited data

Results flagged for a closer look

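Of 80 groups of 4 arrays (10 genes in 8 groups), 4 held an array far from the other 3 by Dixon's criterion, where chance gives about 1 in 20. Pdk4 was 4.66 on T5R10 stressed replicate 1, with the nearest at 5.46; this array was marked for evaluation. Pdp1 was 1.80 on T10R42 control replicate 1, with the nearest at 1.97. Pdp2 was 1.25 on T10R1 stressed replicate 1, with the nearest at 1.81. Pfkfb3 was 0.76 on T10R42 control replicate 1, with the nearest at -0.37. The stress effect of Pdk2 differed between T5R10 and T5R1 by 0.56 in a limma test of the difference (adjusted p = 0.0175).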

How the results depend on the processing

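Pdk2 in T5R1 stayed called under each alternative run. With Pdk4 joining it, 2 members were called in T5R1 with normexp, the stricter filter, the replicate block, slide row, a variance trend or only that condition's arrays (1 to 2 leaving out 1 array; 2 without stressed replicate 4). For T5R10 minus T5R1 the count was 0, Pdk2 being lost, with quantile normalization, the replicate block (adjusted p = 0.0837) or only the arrays compared (0 to 1 leaving out 1 array; 0 without T5R1 stressed replicate 1). Leaving out 1 array gave 0 to 1 for T10R42 minus T10R1 (Pfkfb3, without T10R42 control replicate 1) and 0 to 1 for the mean effect (Pdk2, without T5R1 stressed replicate 4).

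Signs turned for small effects. In T5R10, Pdk3 was 0.01 with normexp, 0.04 with quantile normalization, 0.06 in the authors' values and 0.16 without the 3 marked arrays, which gave Pfkfb3 -0.05. With quantile normalization or the percentile over probes detected on all arrays, Pdp1 in T5R10 was -0.01 and Pdk2 in T10R42 -0.02. The mean of a gene's probes gave Pdp1 0.07 in T5R1 and 0.13 in T10R42, and Pdp2 0.23 in T10R1; single other probes gave Pdp1 0.06 and 0.23 in T5R1 and 0.27 and 0.24 in T10R42, and Pdp2 0.59 in T10R1. Leaving out 1 array gave ranges across 0 in T5R1 for Pdk3 (-0.27 to 0.05) and Pfkfb2 (-0.02 to 0.05), in T5R10 for Pdk3 (-0.13 to 0.08), Pdk4 (-0.01 to 0.38) and Pdp1 (-0.02 to 0.09), in T10R1 for Pdk3 (-0.16 to 0.04), Pdp2 (-0.18 to 0.02) and Pfkfb2 (-0.03 to 0.22), and in T10R42 for Pdk2 (-0.04 to 0.09). The cause was not tested.

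Over all genes, 21 were called in T5R10, against 83 with quantile normalization, 33 in the authors' values, 9 with no filter or with slide row, 0 with the replicate block or only its own arrays, and 1088 without the marked arrays. T10R1 had 312, against 183 (quantile), 181 (no filter) and 4 (own arrays). T10R42 had 247, against 97 (normexp), 375 (quantile), 127 (authors' values), 492 (percentile over detected probes), 119 (no filter) and 0 (own arrays). T5R10 minus T5R1 had 686, against 392 (no filter), 395 (block) and 209 (own arrays). T10R42 minus T10R1 had 1135, against 565 (quantile), 669 (authors' values) and 451 (no filter). T10R1 minus T5R1 had 163, against 80 (quantile), 12 (no filter), 33 (block), 293 (slide row) and 546 (own arrays). Same-numbered mice did not deviate together throughout (r from -0.27 to 0.21, 7 of 16 closest to their own number), so the numbers were not taken as pairs. Whether the replicates' tissue was handled together is not given in the labels.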
